A study of Homo sapiens with 36 samples.

Results

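The miRNAs of the miR-199 and miR-214 family genes were followed in WI-38, normal fibroblasts from human lung. They were chosen by name, by a rule that did not use their values, though with earlier results of these data known. They make up 5 of the 1508 rows of the deposited miRNA table. The rows are hsa-miR-199a-5p, hsa-miR-199b-5p, hsa-miR-214-3p, hsa-miR-214-5p and 1 row that joins hsa-miR-199a-3p with hsa-miR-199b-3p, called miR-199-3p below because these strands have the same sequence. All 5 rows were among the 360 that passed the filter on low counts.

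Small RNA was sequenced in 36 libraries from 18 conditions, with 2 libraries labelled as biological replicates in each. Ctrl were untreated proliferating cells, labelled as young. They carry no day, so treatment and time in culture cannot be told apart against Ctrl or along a series. For PMD-Sen, the detergent SDS, which injures the plasma membrane, was present at 0.0095% for 24 hours. Collection was at the end of this exposure (D0) and then, after washout, on 7 days from D1 to D16 (D1 to D4, D6, D8, D16). For DDR-Sen, the DNA-damaging drug doxorubicin (DXR) was given at 250 nM for 24 hours, with collection on the same days. RS cells had reached replicative senescence by serial passage, at a population doubling level of 54 to 56. All conditions were made from this single cell strain, which limits what they say of other fibroblasts.

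MicroRNAs are cut from hairpin precursors, and either strand of the hairpin, 5p or 3p, can be loaded onto Argonaute to pair with target mRNAs through its seed, bases 2 to 8. miR-199 and miR-214 are known as miRNAs of mesenchymal cells such as fibroblasts. MIR199A2 and MIR214 come from 1 noncoding transcript, DNM3OS, which lies antisense to the dynamin gene DNM3 and is switched on by TWIST transcription factors. MIR199A1 and MIR199B lie antisense within the related genes DNM2 and DNM1. In lung fibroblasts miR-199a-5p is known to act on caveolin-1, while MTOR is a known target of miR-199a-3p.

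The mature sequences below show which reads the rows can tell apart. They come from RefSeq (GRCh38.p14), all positions are on GRCh38, the build named in the submitters' processing notes, and capitals mark the seed. hsa-miR-199a-5p is encoded on the minus strand at chr1:172144592-172144614 (MIR199A2) and at chr19:10817469-10817491 (MIR199A1). miR-199-3p has 3 sources, chr1:172144554-172144575 (MIR199A2), chr19:10817429-10817450 (MIR199A1) and chr9:128244745-128244766 (MIR199B), so its counts cannot be assigned to a gene. hsa-miR-214-3p lies at chr1:172138816-172138837 and hsa-miR-214-5p at chr1:172138857-172138878, both on the minus strand. hsa-miR-199b-5p, from MIR199B, completes the rows.
hsa-miR-199a-5p: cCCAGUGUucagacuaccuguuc
hsa-miR-199a-3p and hsa-miR-199b-3p: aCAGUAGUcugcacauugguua
hsa-miR-214-3p: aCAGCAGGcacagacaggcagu
hsa-miR-214-5p: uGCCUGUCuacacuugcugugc

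The hairpins of the chromosome 1 pair are shown next, with the mature strands in capitals (5p first), because the comparison of the strands of a hairpin rests on them. MIR199A2 spans chr1:172144535-172144644 and MIR214 spans chr1:172138798-172138907, with 5627 bases between them. In the GENCODE annotation, both overlap exons of the lncRNA gene DNM3OS on their own strand and no exon of DNM3, whose intron they lie in on the opposite strand. MIR199A1 and MIR199B likewise overlap no exon of DNM2 or DNM1.
MIR199A2: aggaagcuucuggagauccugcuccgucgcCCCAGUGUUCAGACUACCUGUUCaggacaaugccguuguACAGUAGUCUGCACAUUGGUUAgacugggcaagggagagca
MIR214: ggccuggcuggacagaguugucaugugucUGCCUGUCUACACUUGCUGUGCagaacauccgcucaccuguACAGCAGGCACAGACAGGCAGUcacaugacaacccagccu

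A further miRNA gene, MIR3120, is read from the other strand of MIR214, and its mature strands mirror those of miR-214. miR-3120-5p overlaps miR-214-3p by 18 bases and miR-3120-3p overlaps miR-214-5p by 21 bases. miR-3120-5p had 2 counts over the 36 libraries and miR-3120-3p had 0, against 46865 for miR-214-3p and 223 for miR-214-5p, so nearly all counts at this locus came from the MIR214 strand. Few other miRNAs carried the same seeds. The seed of miR-199-3p is shared by miR-3129-5p, which had 41 counts in all against 78919 for miR-199-3p. The seed of miR-214-3p is shared by miR-3619-5p, which had 73 counts in all.
hsa-miR-3120-5p: cCUGUCUGugccugcuguaca
hsa-miR-3120-3p: cACAGCAAguguagacaggca

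The libraries held 81668 to 1933435 counts, with a median of 376989. Replicate 1 of PMD-Sen D16 was the deepest library of all and held 4.39 times the counts of replicate 2. Levels are given as CPM, counts scaled to a common library total, after TMM scaling. Marker miRNAs were set beside the fibroblast label, but none of the lists was for lung. The 15 fibroblast and mesenchymal miRNAs on the list summed to 196000 to 315000 CPM in a library. This sum was led by miR-100-5p, miR-21-5p and miR-125b-5p, with mean CPM of 78300, 63900 and 63400, so it does not show the cell type by itself. By contrast, 7 epithelial miRNAs summed to 14.6 to 163 CPM and 2 endothelial miRNAs to 18.4 to 200 CPM. The 4 muscle miRNAs summed to 0 to 46.7 CPM and 3 neural miRNAs to 0 to 22.6 CPM. Of the 8 blood and serum miRNAs, 6 had a row, and these summed to 209 to 1220 CPM, mostly miR-486-5p, while the red cell marker miR-451a had 31 counts in all 36 libraries.

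All rows kept nearly the same order of abundance in every condition. The 4 rows with a printed sequence are 22 or 23 bases long, so their CPM were compared without a length correction. miR-199-3p ranged from 2240 CPM (RS replicate 1) to 8630 CPM (PMD-Sen D0 replicate 2), with a median of 4500 CPM, and ranked 27th to 54th in a library. miR-214-3p ranged from 1880 to 6920 CPM around a median of 3260 CPM, and miR-199a-5p from 530 to 1730 CPM around 973 CPM. miR-199b-5p was much lower, with 0 to 170 CPM and a median of 77.5 CPM. miR-214-5p, the minor strand of its hairpin, was lowest with 0 to 43.9 CPM and a median of 13.2 CPM.

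miR-199-3p exceeded miR-214-3p in 33 of 36 libraries, and the exceptions were single replicates of PMD-Sen D0, D1 and D2. miR-214-3p exceeded miR-199a-5p, and miR-199a-5p exceeded miR-199b-5p, in all 36. miR-214-5p rested on 0 to 20 counts a library and was at or below 3 counts in 11 of 36, so changes of this strand were mostly not detectable at this depth. Its 0 counts in PMD-Sen D1 replicate 2 allow a level of up to 18.9 CPM. Between conditions ordered by mean CPM, replicates of neighbouring conditions overlapped in 17 of 17 neighbours for miR-199-3p, in 16 of 17 for miR-214-3p, miR-199a-5p and miR-214-5p, and in 15 of 17 for miR-199b-5p. Ordering by mean sets similar conditions side by side, so this shows only that most neighbours in the order are not resolved. Other miRNAs were not counted in this way.

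**Figure D1:**
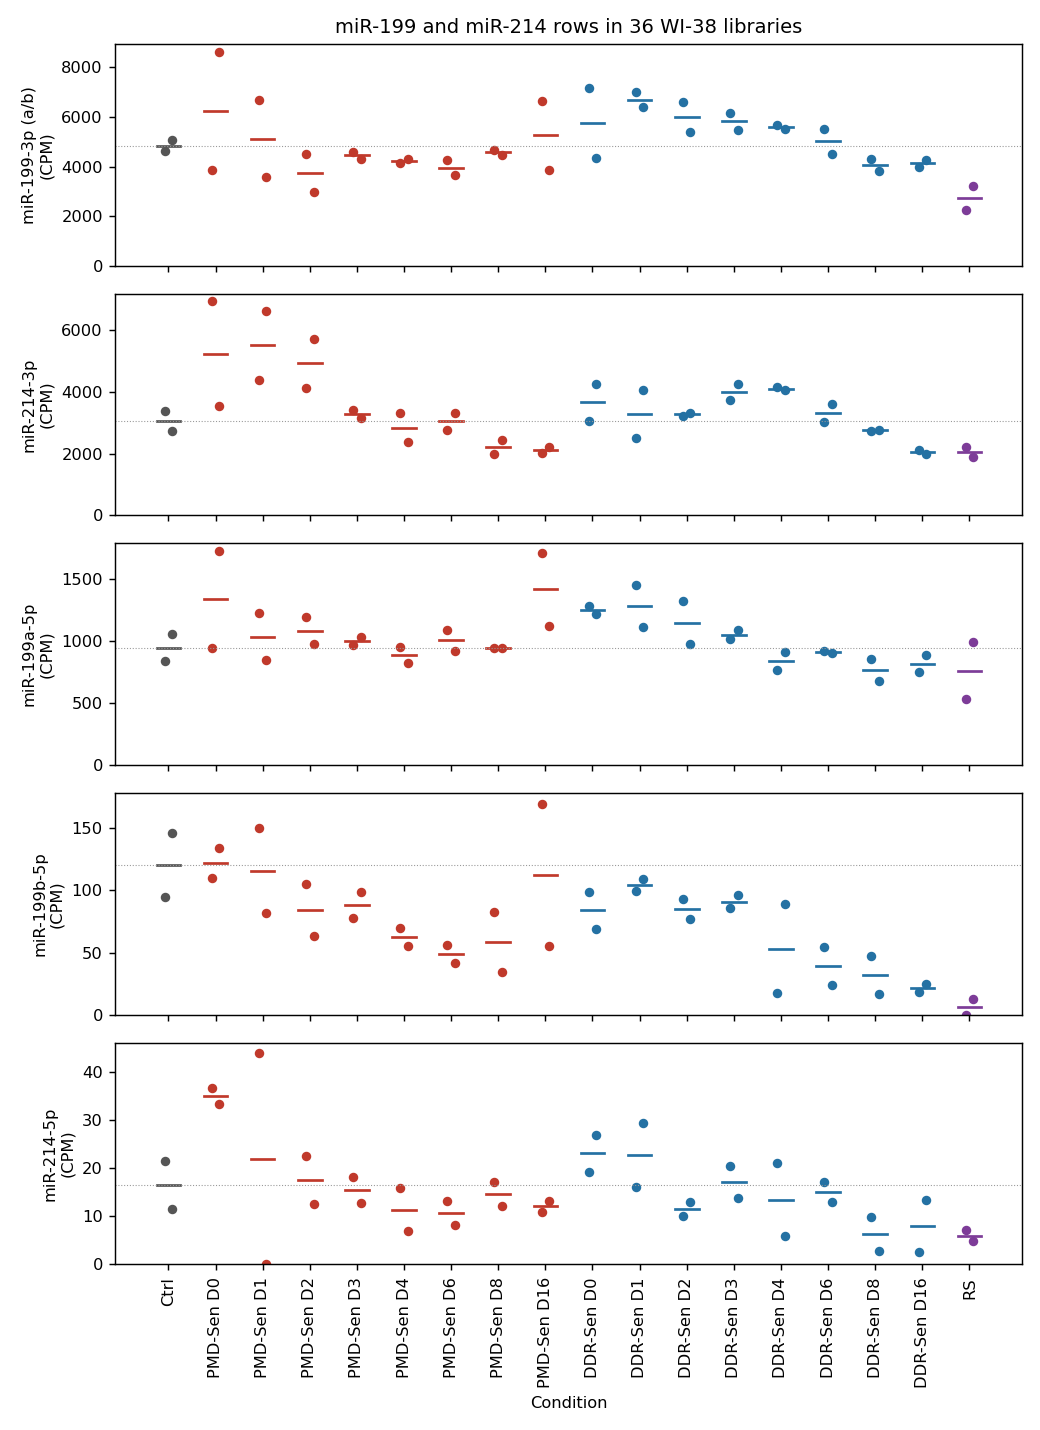
CPM after TMM scaling (y axes, each starting at 0) of the 5 rows in the 18 conditions (x axis). Points are libraries, bars the mean of 2 and dotted lines the Ctrl mean; miR-199b-5p lies at 0 and 12.9 CPM in RS and at 18.1 and 24.9 CPM in DDR-Sen D16, below both Ctrl libraries.

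The comparison with Ctrl asked how far each senescence series had moved these miRNAs at each day. miR-199b-5p had the clearest change, falling in DDR-Sen at D8 and D16 and in RS. miR-199-3p fell in RS. miR-214-3p, miR-199a-5p and miR-214-5p passed the test in none of the 17 conditions. With edgeR (quasi-likelihood test, p adjusted by Benjamini and Hochberg), 4 of the 85 member tests had an adjusted p below 0.05, beside 7.16% of all tests over these 17 comparisons. By the thresholds the study used (unadjusted p below 0.05 with a log2 fold change beyond 1 in size), 5 of 85 passed, beside 9.90% of all tests, and all 5 were miR-199b-5p. The members' share of calls was thus not above that of all miRNAs.

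miR-199b-5p had 22 and 51 counts in the Ctrl libraries, or 94.5 and 145.9 CPM. In DDR-Sen the D0 libraries held 98.7 and 69.0 CPM, those of D1 99.4 and 109.1, those of D2 93.0 and 77.3, and those of D3 85.5 and 96.2. At D4 the replicates parted, with 17.5 and 88.9 CPM. Both libraries were below both Ctrl libraries at D2, at D4 and from D6 on. The levels were 54.5 and 24.0 CPM on D6, 47.0 and 16.3 CPM on D8, and finally 18.1 and 24.9 CPM on D16. How often all miRNAs lay apart from Ctrl in this way was not counted. The differences at D2 and D4 did not pass the test (log2 fold changes -0.51 and -1.15, edgeR adjusted p = 0.733 and 0.278).

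The DDR-Sen D16 libraries held only 7 and 13 counts of miR-199b-5p, so the size of its change there is imprecise. The fall of miR-199b-5p at DDR-Sen D16 was 5.51-fold, a log2 fold change of -2.46 (SE 0.66, edgeR adjusted p = 0.00617), where 11.7% of all tested miRNAs passed as lower. At D8 it was -1.88 (SE 0.62, edgeR adjusted p = 0.0465), where 5.83% passed as lower. At D6 it was -1.71 (SE 0.63, edgeR unadjusted p = 0.011, adjusted p = 0.082), which met the study's thresholds, as did 7.22% of all miRNAs in that direction, but missed the adjusted threshold in this fit. It passed with DESeq2 (-1.78, DESeq2 adjusted p = 0.0289), without the low-count filter (edgeR adjusted p = 0.0372) and with only the 4 libraries compared (edgeR adjusted p = 0.0162). The D16 call was lost without Ctrl replicate 2 (log2 fold change -2.12, edgeR adjusted p = 0.106) and without either DDR-Sen D16 library (-2.27 and -2.81, edgeR adjusted p = 0.0672 and 0.0578), with the direction kept. The D8 call was lost without any 1 of its 4 libraries, with values of -1.43 to -2.84, and also with TMM factors computed without the members (edgeR adjusted p = 0.0522) and after thinning to the smallest total (edgeR adjusted p = 0.0874).

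In RS, miR-199b-5p had 0 counts in replicate 1, which allows up to 7.16 CPM, and 7.5 counts (12.9 CPM) in replicate 2. Both lie far below the Ctrl libraries. The log2 fold change was -3.99 (SE 0.75, edgeR adjusted p = 0.000207), where 12.2% of all miRNAs passed as lower. This was the only call against Ctrl that held in every alternative analysis, 15 of 15, although its size rests on the 7.5 counts of replicate 2. A fall of miR-199-3p accompanied it, from 4615 and 5066 CPM in Ctrl to 2240 and 3210 CPM in RS, or 1.78-fold (log2 fold change -0.83, SE 0.30, edgeR adjusted p = 0.0434). Without RS replicate 1 that value was -0.48 (edgeR adjusted p = 0.388), and it also missed the threshold without either Ctrl library and with only the 4 libraries compared (-0.86, edgeR adjusted p = 0.0764).

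In PMD-Sen, miR-199b-5p went from 110.3 and 133.7 CPM at D0 to 69.7 and 55.1 on D4, then 56.2 and 41.5 (D6) and 82.7 and 34.1 (D8). The D6 difference from Ctrl was -1.30 on the log2 scale (SE 0.60, edgeR unadjusted p = 0.0385, adjusted p = 0.19), which met the study's thresholds as did 6.39% of all miRNAs in that direction. At D16 the replicates lay further apart than on any other day of this series, with 169.8 CPM (311.5 counts) in replicate 1 and 55.0 CPM (25 counts) in replicate 2. The former was the highest level in any library and the latter was below both Ctrl libraries, so the fitted D16 change of -0.05 (SE 0.55) says little about this strand.

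**Figure D2:**
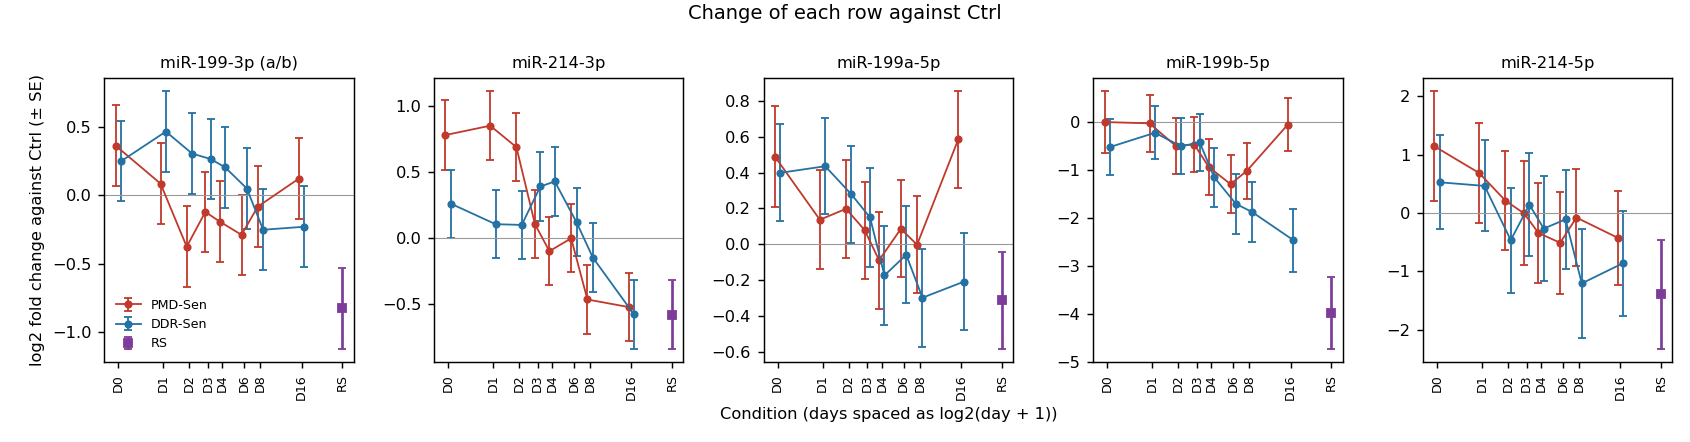
Log2 fold change against Ctrl (y axes, scaled separately by panel) of each row by day in PMD-Sen (red) and DDR-Sen (blue), with RS (purple) at the right. Error bars are the SE from edgeR; miR-199b-5p reached -2.46 in DDR-Sen D16 and -3.99 in RS.

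By edgeR, miR-214-3p passed against Ctrl in none of the 17 conditions. Both its libraries lay above both Ctrl libraries in 5 conditions and below them in 4, and overlapped them in 8. How often all miRNAs lay apart from Ctrl in this way was not counted. In Ctrl miR-214-3p stood at 3377 and 2729 CPM. All libraries of PMD-Sen D0 (6920 and 3533 CPM), D1 (4394 and 6625) and D2 (4115 and 5721) were above these, and so were those of DDR-Sen D3 (3743 and 4251 CPM) and D4 (4159 and 4047 CPM). For the PMD-Sen days, the differences from Ctrl were 0.78, 0.85 and 0.69 on the log2 scale and did not pass the adjustment (edgeR adjusted p = 0.21, 0.0941 and 0.21), with unadjusted p of 0.00583, 0.00278 and 0.0129, though DESeq2 called D1 (0.81, SE 0.27, DESeq2 adjusted p = 0.0493). From D8 of PMD-Sen the level lay below both Ctrl libraries, at 1970 and 2442 CPM on D8 and 2015 and 2226 CPM on D16. DDR-Sen D16 (2107 and 1972 CPM) and RS (2197 and 1875 CPM) reached almost the same level, with log2 fold changes of -0.58 in both (edgeR adjusted p = 0.108 and 0.107).

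The fall of miR-214-3p passed the test when D16 was set against D0 of the same series. D0 was collected before washout, so the end of the exposure state and later change cannot be told apart here. Against Ctrl, miR-214-3p in PMD-Sen stood at 0.78 at D0 and -0.53 at D16 on the log2 scale. Neither passed (edgeR adjusted p = 0.21 and 0.1475 for miR-214-3p). In PMD-Sen miR-214-3p was 2.47-fold lower at D16 than at D0 (log2 fold change -1.30, SE 0.26, edgeR adjusted p = 0.00123), 1 of 5 members to pass where 8.33% of all miRNAs passed as lower. Without PMD-Sen D0 replicate 1 this was -0.70 (edgeR adjusted p = 0.138). In DDR-Sen it was 1.79-fold lower (log2 fold change -0.84, SE 0.26, edgeR adjusted p = 0.0241). miR-199b-5p also fell from D0 to D16 of DDR-Sen (-1.94, SE 0.66, edgeR adjusted p = 0.0402), which makes 2 of 5 members, again beside 8.33% of all miRNAs. Both DDR-Sen calls were lost without either D16 library or without D0 replicate 2, and that of miR-199b-5p also without D0 replicate 1.

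A slope over all 8 time points was fitted next. It is the change in log2 expression per doubling of (day + 1) over the 16 libraries of a series. In DDR-Sen all 5 members fell, where 17.9% of the 319 tested miRNAs passed as lower. miR-199b-5p had the steepest slope of the 5 and ranked 4th from the bottom of all tested miRNAs, at -0.55 (SE 0.12, edgeR adjusted p = 0.000836). The slopes were -0.21 for miR-199a-5p (SE 0.04, edgeR adjusted p = 0.000624), -0.17 for miR-199-3p (SE 0.05, edgeR adjusted p = 0.00451), -0.16 for miR-214-3p (SE 0.06, edgeR adjusted p = 0.0295) and -0.39 for miR-214-5p (SE 0.15, edgeR adjusted p = 0.0469). The median slope was -0.21 over the members and 0.02 over all tested miRNAs. Since miR-199-3p stands for 3 genes and strands of 1 hairpin share a precursor, the members are not independent.

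The slope of miR-199b-5p in DDR-Sen passed the test in 17 of 17 alternatives. With replicate 1 left out, 8 libraries remained and miR-199-3p (-0.08), miR-199a-5p (-0.14) and miR-214-5p (-0.43) no longer passed, nor did miR-199a-5p without D0 to D2 (-0.13, edgeR adjusted p = 0.192). miR-214-3p lost its call without replicate 2 (-0.12) and without D16 (-0.10, edgeR adjusted p = 0.186). The call of miR-214-5p, which rests on 1 to 15 counts a DDR-Sen library, was also lost without D16, with day on a linear scale and without the low-count filter.

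In PMD-Sen only miR-214-3p passed, 1 of 5 members where 17.0% of the 336 tested miRNAs passed as lower. Its slope was -0.38 (SE 0.06, edgeR adjusted p = 7.76e-05), with levels going from 6920 and 3533 CPM at D0 to 2015 and 2226 CPM at D16. It passed in 16 of 17 alternatives and missed the threshold without replicate 1 (-0.33, edgeR adjusted p = 0.0826). The slope of miR-214-5p was -0.35 (SE 0.17, edgeR unadjusted p = 0.0478, adjusted p = 0.1). The slopes of miR-199-3p (-0.04, SE 0.07), miR-199a-5p (0.02, SE 0.06) and miR-199b-5p (-0.07, SE 0.12) were smaller than their errors. For miR-199b-5p this turned on the PMD-Sen D16 replicate 1 library: without it the slope was -0.34 (edgeR adjusted p = 0.0273), and without D16 it was -0.40 (edgeR adjusted p = 0.0286). Without D0 to D2 miR-199a-5p had a rising slope of 0.28 (SE 0.09, edgeR adjusted p = 0.0312). With the GC slope as a covariate 3 of 5 members passed in PMD-Sen, beside 19.9% of all miRNAs in either direction: miR-199-3p at -0.21 (SE 0.04, edgeR adjusted p = 0.00178), miR-214-3p at -0.23 (SE 0.06, edgeR adjusted p = 0.00434) and miR-214-5p at -0.59 (SE 0.20, edgeR adjusted p = 0.0358).

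Whether the slopes differed between the series was tested as an interaction over the 32 libraries of both. By edgeR, 0 of 5 members passed, beside 14.4% of all miRNAs, while 3 had an unadjusted p below 0.05 and DESeq2 called 3. The PMD-Sen slope minus the DDR-Sen slope was 0.46 for miR-199b-5p (SE 0.17, edgeR adjusted p = 0.0648), -0.24 for miR-214-3p (SE 0.09, edgeR adjusted p = 0.0698) and 0.20 for miR-199a-5p (SE 0.08, edgeR adjusted p = 0.0698). The result depended on the libraries and the scaling. Without replicate 1 the edgeR adjusted p of the members lay between 0.757 and 0.988, whereas without replicate 2 edgeR called 4 of 5. The share of all miRNAs called was not counted in these fits, with DESeq2 or at an unadjusted p below 0.05, so whether the members stand out there is unknown. With the GC slope of a library (defined below) as a covariate, the differences of these 3 were 0.23, -0.08 and 0.09 (edgeR adjusted p = 0.526, 0.569 and 0.468). That of miR-199b-5p was 0.09 without D16 (edgeR adjusted p = 0.841) and 0.20 without the PMD-Sen D16 replicate 1 library (edgeR adjusted p = 0.526).

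**Figure D3:**
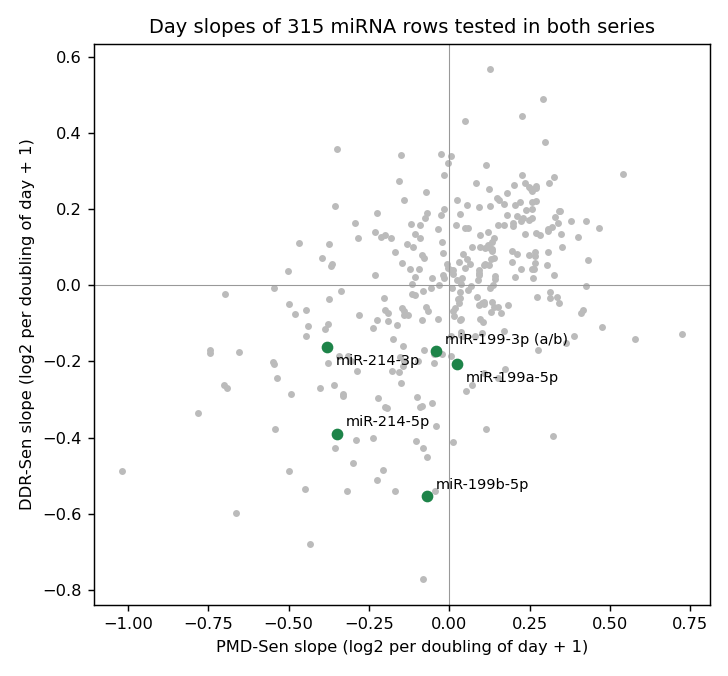
Slope over time in PMD-Sen (x axis) against DDR-Sen (y axis), as log2 change per doubling of (day + 1), of the 315 miRNA rows tested in both series, with the 5 members in green. All members lie below 0 on the DDR-Sen axis, at -0.16 to -0.55, whereas on the PMD-Sen axis only miR-214-3p (-0.38) and miR-214-5p (-0.35) lie far from 0.

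The series were then compared directly. With all days after washout in 1 model that held day as a factor, edgeR called 0 of 5 members beside 23.4% of all miRNAs, with 1 member at an unadjusted p below 0.05 and 0 called by DESeq2. That member was miR-199b-5p, 1.51-fold higher in PMD-Sen (log2 difference 0.60, SE 0.25, edgeR adjusted p = 0.0755). At the 8 matched days edgeR called 0 of 40 member tests beside 1.60% of all tests, with 6 at an unadjusted p below 0.05, and DESeq2 called 1. In both comparisons the share of all tests at an unadjusted p below 0.05 or called by DESeq2 was not counted. Whether the members stand out at those thresholds is thus unknown. The largest difference was that of miR-199b-5p at D16, 2.41 on the log2 scale (SE 0.63, edgeR adjusted p = 0.0737), which is the one DESeq2 called (2.30, SE 0.63, DESeq2 adjusted p = 0.02). It compares 169.8 (replicate 1) and 55.0 CPM (replicate 2) in PMD-Sen with 18.1 and 24.9 CPM in DDR-Sen. Its size thus leans on the deep PMD-Sen D16 replicate 1 library.

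RS, which no acute damage precedes, was compared with the latest day of each series. PMD-Sen D16 was higher than RS for 3 of 5 members, where 6.11% of all miRNAs passed as higher. The log2 differences were 3.93 for miR-199b-5p (SE 0.72, edgeR adjusted p = 0.000533), 0.95 for miR-199-3p (SE 0.30, edgeR adjusted p = 0.0396) and 0.90 for miR-199a-5p (SE 0.27, edgeR adjusted p = 0.029). All 3 rested on the deep PMD-Sen D16 replicate 1 library. Without it they were 2.79, 0.46 and 0.50, and edgeR gave adjusted p of 0.0878, 0.664 and 0.548. miR-199-3p and miR-199a-5p also missed the threshold without PMD-Sen D16 replicate 2 (1.24 and 1.11, edgeR adjusted p = 0.0509 and 0.0713) and without RS replicate 1 (0.58 and 0.39, edgeR adjusted p = 0.576 and 0.733). DDR-Sen D16 against RS gave 0 of 5 members by edgeR, beside 4.44% of all miRNAs in either direction, with 0 at an unadjusted p below 0.05 and 0 by DESeq2, which gave miR-214-5p no adjusted p. miR-214-3p was level across these endpoints, at 0.06 for PMD-Sen D16 (SE 0.26) and 0.00 for DDR-Sen D16 (SE 0.26) against RS.

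miR-199a-5p and miR-199b-5p are close relatives, and a read that fits both is split between them, which gave fractional counts in 5 of 36 libraries. The share of miR-199b-5p in their summed counts does not depend on how a library is scaled. It was 10.1% (95% Wilson interval 6.79 to 14.9%) and 12.2% (9.38 to 15.7%) in the Ctrl libraries. Along DDR-Sen it was 7.21% and 5.37% at D0, 7.79% and 8.11% at D3, 5.59% and 2.60% at D6, 5.21% and 2.33% at D8, and 2.37% (1.15 to 4.82%) and 2.73% (1.60 to 4.61%) at D16. RS had 0 of 222 counts, which allows a share of up to 1.35%, and 1.21% (0.654 to 2.52%). Along PMD-Sen it ran from 10.4% and 7.19% at D0 to 4.89% and 4.32% at D6, and was 9.00% (8.11 to 10.0%) and 4.68% (3.19 to 6.82%) at D16, where the intervals of the replicates did not overlap. The intervals cover counting error only.

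Thus the miR-199-5p counts of DDR-Sen D16 and RS cells were almost entirely miR-199a-5p, which was the larger part in all 36 libraries. Single PMD-Sen libraries also had a low share of miR-199b-5p, down to 3.48% in D8 replicate 2. On the log2 ratio of miR-199b-5p to miR-199a-5p (0.5 added to both), the relation to log2(day + 1) gave Pearson r = -0.63 (permutation p = 0.00966, adjusted p = 0.0483) and Spearman rho = -0.58 (permutation p = 0.0204, adjusted p = 0.102) over the 16 DDR-Sen libraries, and r = -0.47 without the D16 libraries. The adjusted p of r was 0.0554 with the replicate block, 0.0506 with rounded counts, 0.162 after thinning, and 0.332 and 0.247 without replicate 1 or 2 (permutation tests). The PMD-Sen libraries gave r = -0.54 (permutation p = 0.029, adjusted p = 0.088) with rho = -0.54 (permutation p = 0.0343, adjusted p = 0.104), while leaving out D16 gave -0.68. The difference between the series over D1 to D16 was 0.46 (exact permutation p = 0.0388, adjusted p = 0.097).

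**Figure D4:**
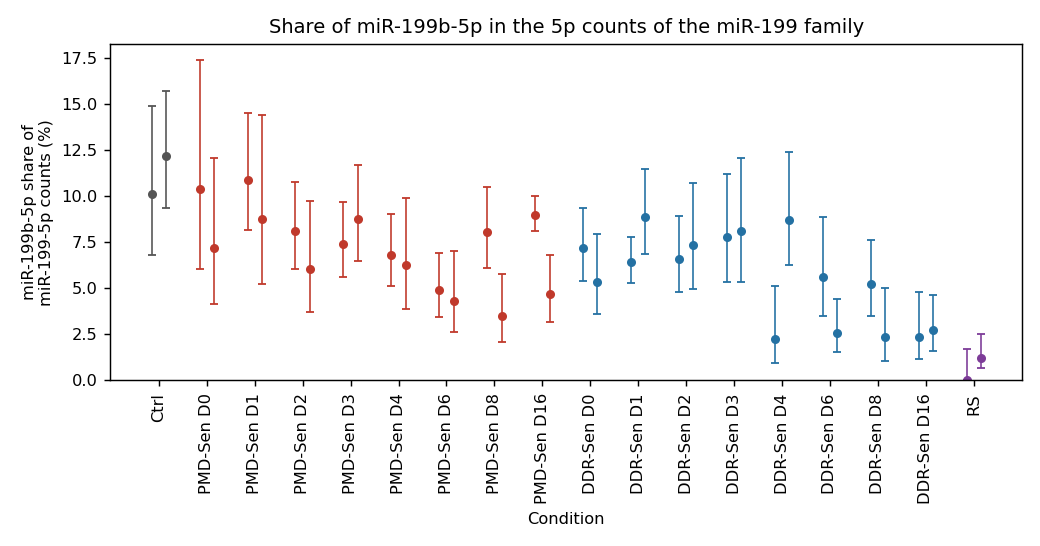
Share of miR-199b-5p in the summed counts of miR-199a-5p and miR-199b-5p (y axis, percent) in each library, by condition (x axis). Bars are 95% Wilson intervals; the Ctrl libraries lie at 10.1% and 12.2%, DDR-Sen D16 at 2.37% and 2.73%, and RS at 0% and 1.21%.

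The strands of the miR-199 hairpins kept different proportions in the 2 series. The log2 ratio of miR-199a-5p to miR-199-3p was -2.46 and -2.27 in Ctrl. Its average over D1 to D16 was -2.08 for PMD-Sen and -2.46 for DDR-Sen. This difference of 0.38 passed an exact two-sided permutation test over all 279936 relabellings within day (p = 5.00e-05, adjusted p = 0.00025 over 5 ratios), the only one of the 5 ratios to do so. All DDR-Sen libraries of D1 to D16 lay at or below -2.26, down to -2.89 in a D4 library. PMD-Sen reached -1.92 and -1.59 at D2, -1.96 and -2.00 at D6, and -1.96 and -1.79 at D16, and it overlapped the DDR-Sen range at D1, D4 and D8. RS had -2.08 and -1.70.

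The difference in strand proportions kept its size when miR-199b-5p was added to the 5p side (0.40, exact permutation adjusted p = 0.000179) and with the GC slope defined below taken out (0.36, exact permutation adjusted p = 0.000322). With 1 replicate alone, too few relabellings within day are left for this test to decide. The difference was 0.35 with replicate 1 and 0.40 with replicate 2. It was not related to day within PMD-Sen (r = 0.22, permutation p = 0.415, adjusted p = 0.593, rho = 0.23, permutation p = 0.391, adjusted p = 0.652) or DDR-Sen (r = -0.24, permutation p = 0.37, adjusted p = 0.593, rho = -0.08, permutation p = 0.782, adjusted p = 0.867). For miR-214, whose 5p strand had few counts, the same ratio differed by 0.10 between the series (exact permutation p = 0.822, adjusted p = 0.822).

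miR-199-3p and miR-214-3p, the most abundant rows, moved apart in single libraries. At PMD-Sen D0, miR-199-3p was at 3860 and 8630 CPM in replicates 1 and 2, and miR-214-3p at 6920 and 3533 CPM, so the libraries were opposite. D1 (6667 and 3589 against 4394 and 6625 CPM) and D2 (4495 and 2955 against 4115 and 5721 CPM) showed the same crossing. The log2 ratio of miR-199-3p to miR-214-3p thus differed by 2.13 between the PMD-Sen D0 replicates, against a median gap of 0.50 over the 18 conditions. Over all 36 libraries it ran from -0.95 to 1.72.

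Replicate differences in this ratio were set against a measure of base composition. miR-214-3p has 59.1% G and C and miR-199-3p 40.9%. In each library, log2 CPM of the tested miRNAs other than the members was regressed on their GC fraction. A sequence was at hand for 329 of 360 rows (91.4%), and the slope is called the GC slope. Over the 18 conditions, the difference between replicates in this ratio and their difference in GC slope had r = -0.89 (permutation p = 1e-05, the smallest that 100000 permutations can give) and rho = -0.93 (permutation p = 1e-05), with r = -0.84 without RS and PMD-Sen D0, the conditions farthest from the median. These p-values are not adjusted, and the cause of this relation was not tested. The replicates of PMD-Sen D0 differed by -4.11 in GC slope and those of RS by -4.22.

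With the GC slope as a covariate, chosen after the replicate differences were seen, the errors were smaller (0.17 against 0.26 for miR-214-3p) and more members passed against Ctrl, 17 of 85, beside 11.8% of all tests in that fit. Those added included miR-214-3p as higher in PMD-Sen D0 (0.71, SE 0.17, edgeR adjusted p = 0.0173), D1 (0.79, SE 0.17, edgeR adjusted p = 0.00212) and D2 (0.65, SE 0.17, edgeR adjusted p = 0.0137). They also included miR-214-3p as higher in DDR-Sen D3 (0.60, SE 0.17, edgeR adjusted p = 0.0162) and D4 (0.49, SE 0.17, edgeR adjusted p = 0.0397), and miR-199-3p as lower in DDR-Sen D16 (-0.72, SE 0.17, edgeR adjusted p = 0.00176). miR-199b-5p stood at -3.20 in DDR-Sen D16 (SE 0.58, edgeR adjusted p = 5.12e-05) and -4.45 in RS (SE 0.64, edgeR adjusted p = 5.29e-07). Each of the 16 calls made without the covariate was kept with it.

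**Figure D5:**
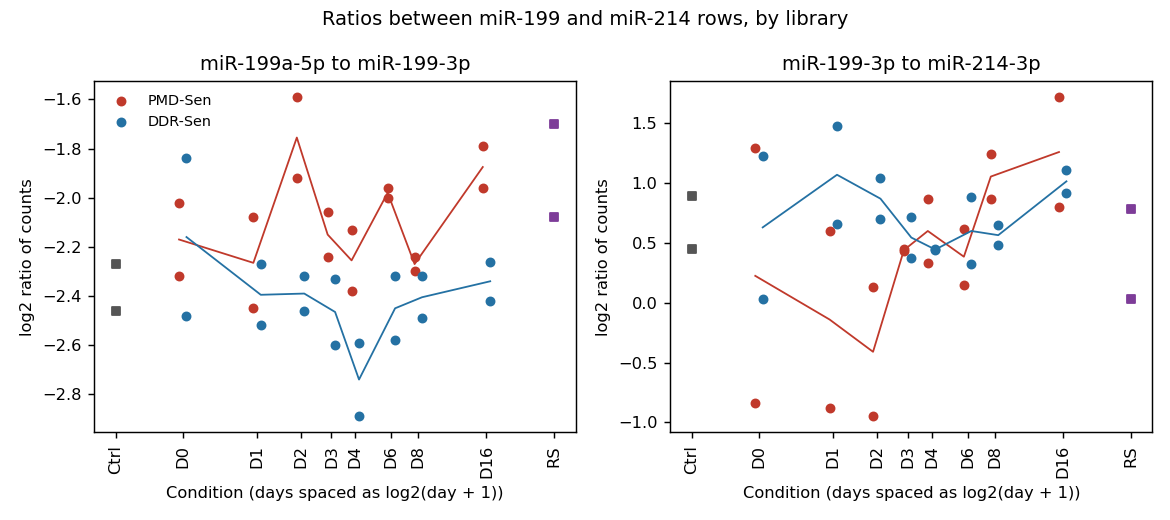
Log2 ratios of counts (y axes) in each library by condition (x axis, days spaced as log2(day + 1)), with lines through the means of PMD-Sen (red) and DDR-Sen (blue) and squares for Ctrl (grey) and RS (purple). Left, miR-199a-5p to miR-199-3p averaged -2.08 in PMD-Sen and -2.46 in DDR-Sen over D1 to D16; right, miR-199-3p to miR-214-3p differed by 2.13 between the PMD-Sen D0 replicates.

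Among the other ratios, that of miR-199a-5p to miR-214-3p was related to day in PMD-Sen by Pearson r but not by Spearman rho after adjustment. Over 16 libraries Pearson r came to 0.65 (permutation p = 0.00569, adjusted p = 0.0483) and Spearman rho to 0.63 (permutation p = 0.0112, adjusted p = 0.102), with r = 0.47 if D16 is left out. The adjusted p of r was 0.0554 with permutation within replicate number (the replicate block), 0.0506 with rounded counts, 0.0802 after thinning and 0.59 without replicate 1. For DDR-Sen, where both strands fell, the values were r = -0.12 (permutation p = 0.646, adjusted p = 0.808) and rho = -0.12 (permutation p = 0.649, adjusted p = 0.867). These correlations belong to a family of 10, over 5 ratios and 2 series.

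The members were only loosely alike in their pattern over the 18 conditions. Pearson r between their mean log2 CPM was lowest for miR-199a-5p with miR-214-3p (0.35) and for miR-199-3p with miR-214-3p (0.41), and highest for miR-199a-5p with miR-199b-5p (0.79). The miRNAs nearest to miR-214-3p were miR-193a-5p (r = 0.92), miR-29b-1-5p (0.88) and miR-193b-5p (0.88). miR-199b-5p ran most like miR-20a-5p (0.92), miR-93-5p (0.86) and miR-17-5p (0.86), members of the miR-17 family known for high expression in dividing cells. Nearest to miR-199a-5p were miR-29a-3p (0.85), miR-145-5p (0.79) and miR-16-5p (0.77), nearest to miR-199-3p were miR-145-3p (0.77), miR-25-3p (0.77) and miR-16-2-3p (0.70), and nearest to miR-214-5p were miR-17-5p (0.77), miR-16-5p (0.77) and miR-145-5p (0.75). These values describe means of 2 libraries that share their scaling and base composition.

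Other miRNAs typical of fibroblasts moved in both directions. Of the 13 on the fibroblast and mesenchymal list that were tested, by edgeR's adjusted p 1 was higher and 1 lower in RS, 1 higher and 2 lower in DDR-Sen D16, and 0 in either direction in PMD-Sen D16, with median log2 fold changes of 0.12, 0.13 and 0.44. Along DDR-Sen 4 of 12 fell and 1 rose (median slope -0.06), and along PMD-Sen 0 of 13 fell and 2 rose (median slope 0.11). The most abundant, miR-100-5p, changed by -0.02 in RS (SE 0.17, edgeR adjusted p = 0.966) and by -0.10 in DDR-Sen D16 (SE 0.17, edgeR adjusted p = 0.673), and miR-125b-5p rose by 0.40 in RS (SE 0.13, edgeR adjusted p = 0.0316).

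Markers of other cell types also moved, from low levels. The endothelial miR-126-3p rose in PMD-Sen D16 (1.56, edgeR adjusted p = 0.00994), DDR-Sen D16 (1.64, edgeR adjusted p = 0.00481) and RS (1.85, edgeR adjusted p = 0.00111), and the blood miRNA miR-486-5p rose in DDR-Sen D16 (1.32, edgeR adjusted p = 0.0126) and RS (1.96, edgeR adjusted p = 0.000304). The liver and serum miRNA miR-122-5p and the epithelial miR-200c-3p fell along both series, with slopes of -1.02 and -0.69 in PMD-Sen and -0.49 and -0.27 in DDR-Sen. Of the muscle list 1 miRNA was tested, miR-1-3p, which passed in none of PMD-Sen D16, DDR-Sen D16 and RS (edgeR adjusted p = 0.937, 0.537 and 0.347), and 0 of the neural list and of the miRNAs sharing a locus or host gene with the members (miR-3120-3p, miR-3120-5p and miR-3154, the last with 41 counts in all) reached the filter. The part of these markers in the members' changes was not tested. In bulk libraries, fewer cells of a type and less RNA per cell cannot be told apart.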

How the data were processed

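Small RNA of WI-38 cells was measured in 36 libraries (18 conditions, 2 biological replicates per the labels). Trimming, alignment (GRCh38, miRBase) and counting were done by the authors in exceRpt. The deposited values are expected counts per mature miRNA, not normalized, and reads that fit several miRNAs are split, so 1003 of 54288 values are not whole. They were rounded before the tests. All columns were assigned to a sample by its description. Library totals of 81668 to 1933435 counts set the precision; 3 counts was taken as the limit that a count of 0 allows.

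Tests across miRNAs used R 4.3.3 and edgeR 4.0.16 (TMM, filterByExpr on condition, quasi-likelihood test, Benjamini-Hochberg adjustment over all tested miRNAs). The fit of conditions used 36 libraries and 360 rows, that of the series 28 libraries and 346 rows, and those of slope 16 libraries each. CPM uses TMM-scaled totals, and log2 CPM a prior count of 2. Alternatives were DESeq2 1.42.0 (Wald test, the tool the authors used), other scalings, filters, thinning, a replicate block, left-out libraries and the 4 libraries of a comparison. Ratios were tested with exact or 100000 permutations, in scipy 1.17.1 and numpy 2.4.6. The procedure was tested on simulated counts.

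Named miRNAs were all members, for each the 3 others of highest r, and at most the 3 most abundant of each list. The members, lists and tests were chosen with earlier results of these data known.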

Additional observations from a re-analysis of the deposited data

Results flagged for a closer look

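PMD-Sen D16 and RS differed by test for 3 members: the log2 difference was 3.93 for miR-199b-5p (SE 0.72, edgeR adjusted p = 0.000533), 0.95 for miR-199-3p (SE 0.30, edgeR adjusted p = 0.0396) and 0.90 for miR-199a-5p (SE 0.27, edgeR adjusted p = 0.029). In PMD-Sen D16 the deeper replicate was the higher one for all 3, at 169.8 against 55.0 CPM, 6651 against 3879 CPM and 1713 against 1121 CPM, and none of the 3 passed without it. The part of depth in these values was not tested.

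The log2 ratio of miR-199a-5p to miR-199-3p differed between PMD-Sen and DDR-Sen over D1 to D16, by 0.38 (exact permutation adjusted p = 0.00025). The GC slopes of the libraries concerned were -7.44 to -2.25 in PMD-Sen (median -5.30) and -7.19 to -4.33 in DDR-Sen (median -5.50), and the difference was 0.36 with the GC slope taken out.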

How the results depend on the processing

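None of the 16 member calls changed direction in any alternative. For the alternatives below, the share of all miRNAs called was counted only with the GC slope, so the other member counts have no such share beside them. The calls of miR-199b-5p in RS against Ctrl and along DDR-Sen passed in all their alternatives. Of the 85 tests against Ctrl, 4 passed in the fit reported, 6 with DESeq2, 5 with no filter, 3 with TMM without the members, 3 with thinning, 8 with only the 4 libraries of a comparison, 17 with the GC slope as a covariate, and 1 to 4 with a library left out (2 without Ctrl replicate 1 and 1 without Ctrl replicate 2). Over D1 to D16, 0 members differed between the series in the fit reported, but 2 did with total counts, 2 with the GC slope, 1 without D16 and 1 without the PMD-Sen D16 replicate 1 library, and 0 without replicate 1 or 2. The call without D16 and that without this library were both miR-199-3p, at -0.31 and -0.32. Total counts raised the median difference of all miRNAs by 0.11 there and by 0.13 to 0.24 at D1 to D8. At matched days the count was 0, and 1 with DESeq2, 1 with no filter, 2 with the GC slope and 0 to 1 with a library left out. Of the 6 slope calls, the count was 2 to 4 without replicate 1 or 2, and 8 with the GC slope. The D16 to D0 count of 3 became 1 with thinning, 6 with the GC slope and 1 to 3 with a library left out. The count of 3 against RS became 1 with DESeq2's size factors, 1 with thinning and 0 to 3 with a library left out. For the difference of slopes, 0 became 3 with DESeq2, 2 with TMM without the members, 2 with no filter, 2 at a mean of at least 10 counts, 1 with thinning, 1 with linear day, 1 without D16 and 0 to 4 with a replicate left out. The ratio that differed between the series, 1 of 5, became 3 with the GC slope. Without replicate 1 or 2, too few relabellings within day were left for this test to decide. The 2 ratios related to day became 0 with rounded counts, 0 with thinning, 0 without D16, 0 to 2 with a replicate left out and 0 with the replicate block (adjusted p = 0.0554 for both). The GC slope, the left-out PMD-Sen D16 replicate 1 library and the alternatives of the slope difference were chosen after seeing the data. Of the 15 ratio results, 9 had an unadjusted p of at least 0.05; 12 of their 81 alternative values changed sign and 1 passed. The cause of these changes was not tested, other than that fewer libraries enter where some are left out.

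Replicate numbers were not taken as pairing the samples: over 153 pairs of conditions, the replicate differences correlated at -0.46 to 0.37 (median 0.04), with 53 above 0.1. The replicate block changed no other call, with 4 against Ctrl, 6 slopes, 3 from D0 to D16 and 3 against RS. Depth limits miR-214-5p most, with at most 3 counts in 11 of 36 libraries, and it did not reach the filter after thinning or at a mean of at least 10 counts.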
